A study of Mus musculus with 5 samples.

Results

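Genes for 8 proteins that shorten the life of cytokine transcripts or hold lymphocytes in a resting state were examined in mouse lung natural helper cells. They were Zfp36, Zfp36l1, Zfp36l2, Zc3h12a, Zc3h12d, Rc3h1, Btg1 and Btg2. These genes were chosen by name for what their products do, but with earlier results of these data known. All 8 were measured, by 9 probe sets (Rc3h1 had a second), among 19938 genes with a probe set of their own, and a gene with several probe sets is given by its brightest one over all arrays. Natural helper cells, now mostly called group 2 innate lymphoid cells, are lymphocytes without antigen receptors that make type 2 cytokines. C57Bl/6 mice, naive and 6 to 8 weeks old, gave the lungs, and the cells were sorted as lineage-negative, Sca-1+, CD127+, CD25+ cells with low or no c-Kit. The 3 unstimulated samples were lysed right after the sort. The other 2 samples were cultured for 3 days in RPMI medium (200 microlitres, 10% serum) that held 60 ng/ml of the phorbol ester PMA, an activator of protein kinase C, and 500 ng/ml of the calcium ionophore ionomycin. No sample was cultured without the activators, so culture and stimulation cannot be told apart. No label says whether the samples came from separate animals or cultures, and the spread behind each p-value may therefore be technical.

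Cytokine transcripts are short-lived because proteins bind their 3′ ends and call in nucleases. ZFP36 proteins (ZFP36 is also called tristetraprolin) bind AU-rich elements and recruit the CCR4-NOT deadenylase, which trims the poly(A) tail. Regnase-1, the product of Zc3h12a, is itself an endonuclease that cuts stem-loops, and Roquin-1, the product of Rc3h1, binds similar stem-loops and recruits deadenylases. BTG1 and BTG2 bind CCR4-NOT subunits and poly(A)-binding protein, speed up deadenylation and are known to restrain T cell activation.

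The deposited values are log2 expression values, so a difference of -1 is a halving of the signal. On that scale 7 of the 8 genes had a lower mean in the stimulated samples, as had 46.7% of all genes. In the same 7, every stimulated array was below every unstimulated array, against 14.0% of all genes. None of the 8 passed limma's test after Benjamini-Hochberg adjustment over all genes at 0.05 (adjusted p from 0.0687 to 0.451), a test that called 1.70% of all genes. At an unadjusted p under 0.05, 6 of the 8 were lower, against 8.58% of all genes. The shares of all genes, here and below, include 12359 genes with the same value on at least 2 arrays, as only 1 member had. Groups that share a value cannot be without overlap, so these shares are not a like background. In a limma fit of the 7579 genes without repeated values, 3774 had an unadjusted p under 0.05 in either direction. The median difference of the 8 was -0.79, and that of all genes was 0. The 3 members with a difference of 2-fold or more were Btg2, Zfp36l2 and Zfp36, a size of decrease that 2.73% of all genes showed. Because the arrays are of bulk RNA, fewer cells of a type and less RNA per cell cannot be told apart.

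The promoters of the members are shown first where they differ in the sites for factors that phorbol ester and calcium signals are known to act through. RefSeq promoter sequences (GRCm38.p6) were found for 7 of the 8 members, all but Zfp36l2. The 250 bases before the start were searched on both strands for the cyclic AMP response element TGACGTCA, its core TGACG (which lies within the full element and is then counted under both), the AP-1 site TGANTCA, the NFAT core GGAAA, the CArG box bound by serum response factor, and the NF-kB consensus site. Btg2, which had the widest difference of the members, its relative Btg1, and Zfp36 are printed, 5′ to 3′ on the gene's strand, with matches other than the NFAT core in capitals.
Btg2 (chr1:134079156-134079405, minus strand): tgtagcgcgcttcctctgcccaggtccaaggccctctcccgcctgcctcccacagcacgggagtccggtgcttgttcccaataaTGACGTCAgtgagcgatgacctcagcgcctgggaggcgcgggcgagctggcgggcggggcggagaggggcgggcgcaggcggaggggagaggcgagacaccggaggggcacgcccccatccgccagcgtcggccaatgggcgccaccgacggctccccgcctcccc
Btg1 (chr10:96616751-96617000, plus strand): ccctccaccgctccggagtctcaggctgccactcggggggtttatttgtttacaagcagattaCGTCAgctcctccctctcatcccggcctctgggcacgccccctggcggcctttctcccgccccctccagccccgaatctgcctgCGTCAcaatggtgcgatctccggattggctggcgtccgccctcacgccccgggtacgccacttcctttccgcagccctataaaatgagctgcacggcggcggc
Zfp36 (chr7:28379229-28379478, minus strand): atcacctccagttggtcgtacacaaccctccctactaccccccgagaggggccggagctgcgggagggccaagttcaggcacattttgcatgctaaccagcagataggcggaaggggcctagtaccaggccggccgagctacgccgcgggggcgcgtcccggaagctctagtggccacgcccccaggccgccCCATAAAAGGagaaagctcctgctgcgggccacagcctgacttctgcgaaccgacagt
The Btg2 window held the full element TGACGTCA at 166 to 159 bases before the start, a match found in 1.55% of 32851 promoters. Btg1 held no full element but 2 copies of the core, the farther one beginning 187 bases before the start, and 17.8% of promoters held the core. Zfp36 held a CArG box at 58 to 49 bases before the start, as did 1.47% of promoters. Single AP-1 sites lay in the windows of Zfp36l1 and Rc3h1 (6.75% of promoters). None of the 7 windows matched the NF-kB consensus (7.25% of promoters), and GGAAA was found in those of Zfp36l1, Rc3h1 and Btg1 (55.6% of promoters). Zc3h12a and Zc3h12d had no match to any of the 6 motifs in this window. These are matches of letters only.

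Among the ZFP36 family, Zfp36 itself read 10.1, 9.62 and 9.89 on unstimulated arrays 1 to 3 and 8.43 and 8.74 on stimulated arrays 1 and 2. The groups did not overlap: the lowest unstimulated value was 0.88 above the highest stimulated one, which is wider than the range of 0.46 within the unstimulated group. The difference was -1.28 ± 0.19 (SE, n = 3 and 2), or 2.43-fold, with a 95% confidence interval from -1.82 to -0.74 before adjustment and an adjusted p of 0.0744. Zfp36l2, whose product acts on AU-rich elements as ZFP36 does, read 7.93, 8.07 and 8.12 in unstimulated cells and 6.10 and 7.01 in stimulated cells. The unstimulated arrays lay within 0.19 of each other, whereas the 2 stimulated arrays were 0.91 apart, a gap that 0.401% of all genes matched or exceeded. Its difference was -1.48 ± 0.31 SE (2.79-fold, adjusted p = 0.121). Without stimulated array 2 it was -1.93 ± 0.10 (adjusted p = 0.0372), and without stimulated array 1 it was -1.03 ± 0.10 (adjusted p = 0.0885), where the lone stimulated array is assumed to vary as the unstimulated ones did. Zfp36l1, the third family member, read 9.68, 9.89 and 9.59 against 9.38 and 9.46. These groups were separated by only 0.13, and the difference of -0.30 ± 0.11 SE had an interval reaching 0.01 above zero (adjusted p = 0.262). Differences between the 3 family members were not tested.

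**Figure D1:**
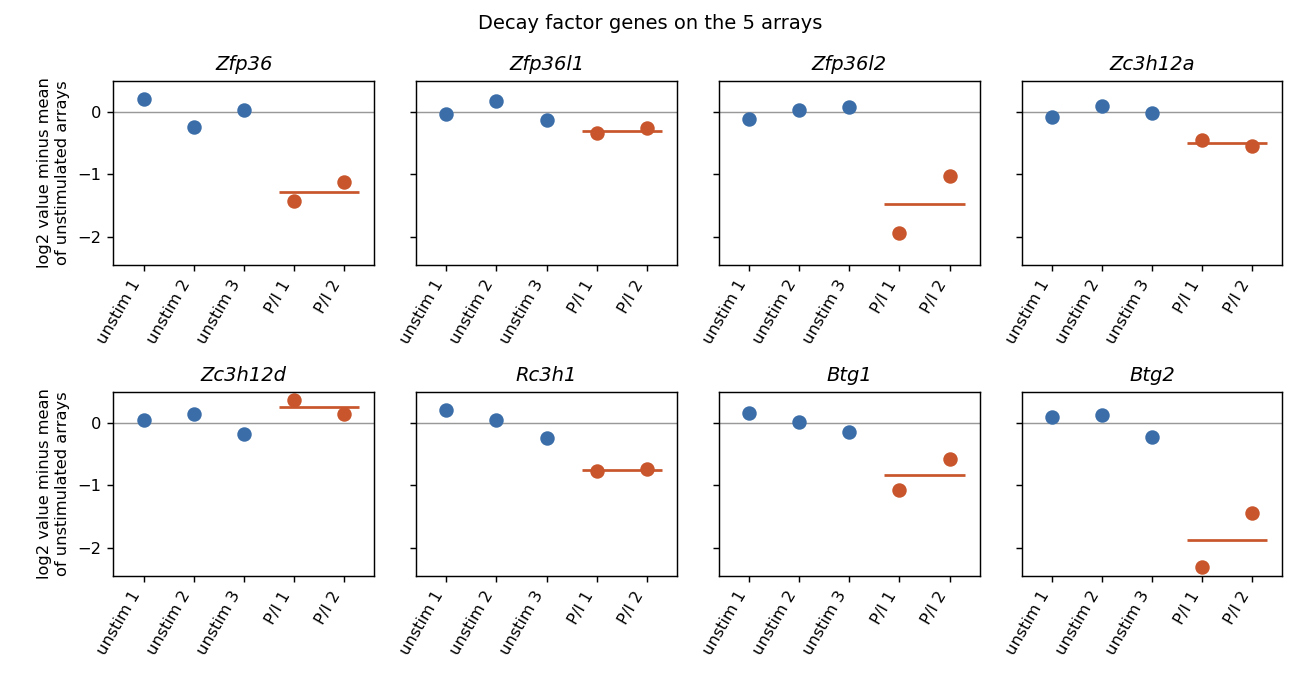
Log2 value of each of the 8 genes on each array, as the difference from that gene's mean over the unstimulated arrays (blue, 3 arrays; orange, 2 arrays with PMA and ionomycin, P/I; orange line, their mean). All orange points lie below all blue points for 7 genes, and for Zc3h12d they do not; the stimulated arrays lie 0.91 apart for Zfp36l2 and 0.87 apart for Btg2.

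Both genes of BTG proteins had lower values in the stimulated samples. Btg2, an early response gene and antiproliferative factor, read 9.68, 9.71 and 9.36 on the unstimulated arrays and 7.26 and 8.14 on the stimulated arrays. The separation between the groups was 1.22, the widest of the 8 genes. The difference was -1.88 ± 0.32 SE (3.69-fold; interval -2.81 to -0.95; adjusted p = 0.0909), the largest of the members. Btg1, which is abundant in quiescent lymphocytes, read 10.1, 9.96 and 9.81 against 8.87 and 9.38, a difference of -0.83 ± 0.20 SE (1.78-fold, adjusted p = 0.143). As for Zfp36l2 and Zfp36, stimulated array 1 was the lower of the stimulated arrays for both BTG genes, by 0.87 for Btg2 and 0.51 for Btg1. Gaps this wide or wider between the stimulated arrays were seen in 0.466% and 3.04% of all genes. Leaving out stimulated array 1 gave -1.45 for Btg2 and -0.58 for Btg1, and leaving out stimulated array 2 gave -2.32 and -1.08.

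The genes of the Regnase and Roquin proteins had differences under 1 in size. Zc3h12a (Regnase-1) read 6.16, 6.33 and 6.22 on the unstimulated arrays and 5.79 and 5.70 on the stimulated arrays. The difference of -0.49 ± 0.07 SE was small (1.41-fold), but both groups were tight, and its adjusted p of 0.0687 was the lowest of the 8. Zc3h12d, which codes for the related Regnase-4, read 6.17, 6.26 and 5.94 against 6.49 and 6.26, and was the only member whose groups overlapped. Its value was the same on unstimulated array 2 and stimulated array 2, and the difference was 0.25 ± 0.14 SE (interval -0.14 to 0.64, adjusted p = 0.451). All values of these Regnase genes lay between the median (5.63 to 5.66) and the upper quartile (7.03 to 7.11) of all probe sets on their arrays. With no detection calls, it cannot be said how much of such values is background, which would make a fold an understatement. Rc3h1 (Roquin-1) read 9.99, 9.83 and 9.54 in unstimulated cells and 9.02 and 9.04 in stimulated cells, a difference of -0.76 ± 0.15 SE (1.69-fold, adjusted p = 0.114). Its second probe set gave 9.20, 9.25 and 8.86 against 8.39 and 8.44, a difference of -0.69 ± 0.14 (adjusted p = 0.118), so the probe sets differed by less than their errors.

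**Figure D2:**
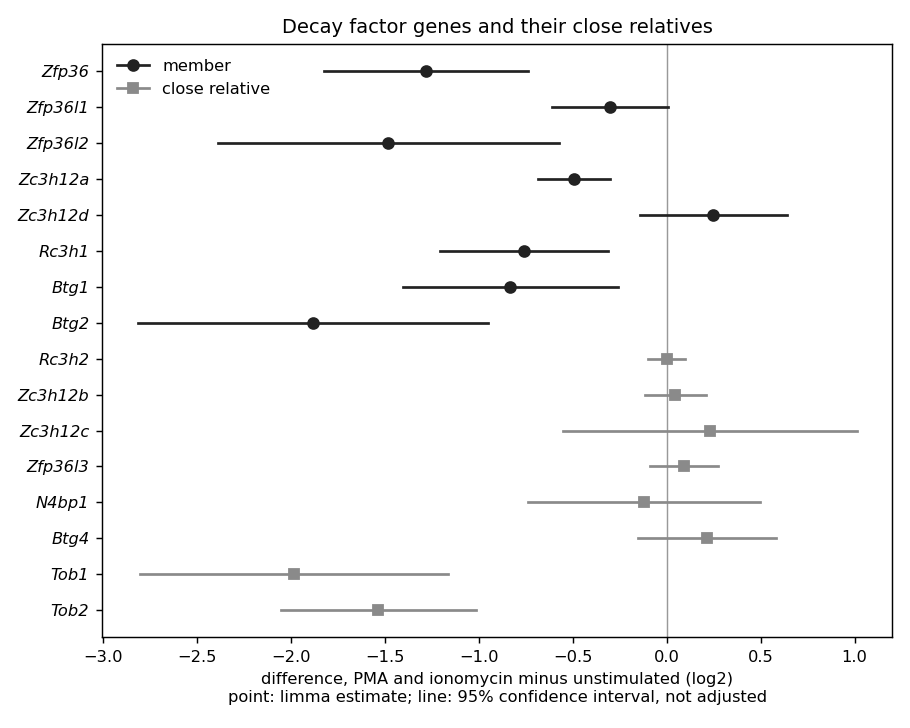
Difference between stimulated and unstimulated arrays on the log2 scale for the 8 genes (black circles) and 8 measured relatives (grey squares), with unadjusted 95% confidence intervals from limma. The intervals of Zfp36, Zfp36l2, Zc3h12a, Rc3h1, Btg1 and Btg2 lie below zero, as do those of the relatives Tob1 and Tob2, while those of Zfp36l1, Zc3h12d and the other 6 relatives include zero.

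The calls of the members moved with the setting. Of all genes, 12359 had the same value (to 5 decimals) on at least 2 arrays, but of the members only Zc3h12d did. With each array centred on its median, Zfp36 (adjusted p = 0.0338), Zc3h12a (0.0492) and Btg2 (0.0468) were called lower, as were 2.64% of all genes (5.95% in either direction). The share of higher genes among all calls went from 43.4% to 55.6%. The same 3 genes were called lower after quantile normalization was applied again, as were 3.66% of all genes (7.79% in either direction). Those 3 and Rc3h1 were called lower when only genes brighter than the median probe set were tested, as were 6.91% of those genes (14.9% in either direction). Among the 7579 genes without repeated values 6 members were called lower, where 15.3% of genes were called lower and 35.7% in either direction. Centring on reference genes, which lowered the median of all genes by 0.27, called 7 members and 14.1% of all genes lower (18.7% in either direction). It gave 24.5% higher among all calls and turned the difference of Zc3h12d to -0.017. Of the 10 reference genes, 9 were themselves higher in the stimulated samples (median difference 0.21), so this centring lowers the difference of every gene. The 3 settings that varied the variance model or weighted the arrays called none of the 8. With each array left out in turn, the differences ranged from -1.43 to -1.13 for Zfp36, from -2.32 to -1.45 for Btg2, from -0.88 to -0.66 for Rc3h1 and from -0.54 to -0.45 for Zc3h12a, and Zfp36l2 without stimulated array 2 was the only call.

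**Figure D3:**
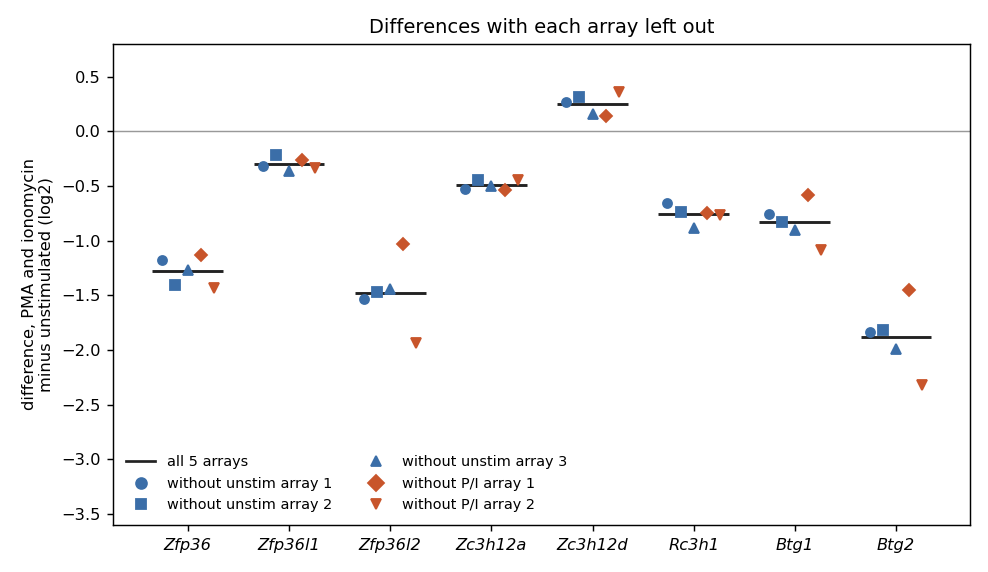
Difference of each gene on the log2 scale with all 5 arrays (black line) and with each array left out (blue, an unstimulated array left out; orange, a stimulated P/I array left out). Btg2, Zfp36l2 and Btg1 move most with the stimulated arrays; the differences of Zc3h12a stay between -0.54 and -0.45.

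Marker genes of the sorted population and of other cell types differed between the groups too. Of 12 measured marker genes of natural helper cells, all stood above the lower quartile on at least 1 array, and the median difference was -0.78. On both stimulated arrays 8 were lower than on any unstimulated array, and 4 were higher (14.0% and 18.6% of all genes). Il17rb, which codes for an IL-25 receptor chain (-3.23 ± 0.32 SE), Kit (-2.86 ± 0.13), Rora (-0.81 ± 0.07), Id2 (-0.78 ± 0.05) and Il7r (-0.77 ± 0.03) fell and none rose (0.963% and 0.737% of all genes). Their adjusted p in limma ran from 0.0229 for Kit and Il7r to 0.0492 for Il17rb. Whether these marker calls hold with an array left out was not tested. The 4 higher ones were Il13 (2.41 ± 0.43 SE), Il5 (0.71 ± 0.33), Arg1 (0.37 ± 0.16) and Il2ra (0.19 ± 0.04), none of them called. The part of these markers in the values of the members was not tested. The lineage factor gene Gata3 read 10.5 to 10.8 on unstimulated and 10.2 on both stimulated arrays. For 6 of 12 lists of markers of other cell types, the summed log2 value was lower on both stimulated arrays than on any unstimulated array. Sums of 5 endothelial markers were 31.3 to 39.3 on unstimulated and 28.1 to 29.4 on stimulated arrays (all 5 lower), those of 6 neutrophil markers 32.3 to 39.6 and 28.6 to 28.8 (4 lower), and those of 6 lung epithelial markers 36.7 to 42.7 and 34.4 to 34.5 (all 6 lower). Sums for 7 macrophage and monocyte markers were 37.3 to 40.6 and 34.7 to 34.8 (6 lower), and those for 6 mast cell and basophil markers 26.7 to 27.9 and 23.3 to 23.8 (all 6 lower). Sums for 5 fibroblast markers were 28.9 to 31.9 and 27.8 to 28.1 (all 5 lower). Median differences were -0.93 for the endothelial, -0.85 for the neutrophil and -0.33 for the epithelial list. They were only -0.07 for the macrophage, -0.10 for the mast cell and -0.09 for the fibroblast list. The sums of these last lists rested mostly on 1 gene each, Lyz2 (-3.25), Cpa3 (-2.80) and Dcn (-1.62 ± 0.96 SE). For 6 T cell markers, whose groups overlapped, the sums were 40.4 to 47.0 and 39.8 to 41.2 (all 6 lower). The part of such cells in the values of the members was not tested. The value table has no zeros, and of these 7 lists only that of mast cells and basophils had markers under the lower quartile on every array (2 of 6). Of the unstimulated arrays, array 3 had the lowest sums for the endothelial, neutrophil, epithelial, macrophage and T cell lists, but not for the fibroblast or mast cell lists. Against that array alone, Zfp36 differed by -1.31, Zfp36l2 by -1.56, Btg2 by -1.66, Btg1 by -0.68, Rc3h1 by -0.51, Zc3h12a by -0.48, Zfp36l1 by -0.17 and Zc3h12d by 0.43. In that fit 2 members were lower at an unadjusted p under 0.05, and none was called. The Xist RNA read 9.09 to 10.2 on unstimulated arrays and 4.16 and 4.11 on stimulated arrays, and the labels give no sex, so a difference in sex cannot be told apart from the effects of culture and stimulation.

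Early response genes, the class to which Zfp36 and Btg2 belong, mostly had a pattern of the same direction. Of 21 measured, 19 were lower and 2 higher (46.7% and 53.3% of all genes). Of the 21, 9 were called lower and none higher, against 0.963% and 0.737% of all genes, and the median difference was -1.95. Egr2, named after its values were seen, was higher without overlap (8.68 to 9.35 on unstimulated and 10.3 on both stimulated arrays, a difference of 1.24 ± 0.24 SE). Fosb (-4.80 ± 0.06 SE, adjusted p = 0.0105), the MAP kinase phosphatase gene Dusp1 (-3.36 ± 0.15, 0.0229), Fos (-2.95 ± 0.11, 0.0229) and Jun (-2.89 ± 0.21, 0.0358) fell furthest. With an array left out in turn, the call of Jun was lost in all 5 fits (and with a robust prior, adjusted p = 0.0509), those of Dusp1 and Fos were lost without unstimulated array 1, 2 or 3, and that of Fosb was lost without unstimulated array 1 or 2 (adjusted p of the 4 genes from 0.0244 to 0.120). The list's median level was 9.05, 8.84 and 8.19 on the unstimulated arrays and 6.59 and 6.81 on the stimulated arrays. These genes are also known to be induced by tissue dissociation and sorting, and their part in the values of the members was not tested. Among all named genes, the profile nearest to that of Btg2 over the 5 arrays was that of Nr4a2, an early response nuclear receptor gene (Euclidean distance 0.17 log2 units after each gene was centred on its own mean), followed by the chemokine receptor gene Cxcr4 (0.37) and Psd3 (0.40). The nearest to Zfp36 were Amigo2 (0.16), the pentraxin gene Ptx3 (0.21) and Agr2 (0.22).

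Among close relatives of the members, the widest differences were those of the TOB genes. Tob1, an antiproliferative member of the BTG/TOB family that also binds CCR4-NOT, read 9.95, 9.86 and 9.24 on the unstimulated arrays and 7.54 and 7.87 on the stimulated arrays. Its difference of -1.98 ± 0.28 SE (adjusted p = 0.0732) lay within the error of that of Btg2. Tob2, named after its values were seen, read 9.16, 9.39 and 8.94 against 7.49 and 7.77 (-1.53 ± 0.18 SE, adjusted p = 0.0591). The groups of Btg1, Btg2, Tob1 and Tob2 did not overlap, while those of Btg4 did (3.13 to 3.45 on unstimulated arrays against 3.45 and 3.61). Rc3h2, which codes for Roquin-2, stood at 8.47, 8.52 and 8.57 on the unstimulated arrays and at 8.52 on both stimulated arrays. Its difference was 0.00 ± 0.03 SE. The values of Rc3h2 on the stimulated arrays were identical, a repeated value that adds no spread, so this error may be too small. The interval for Rc3h1, which had no repeated value, ran from -1.20 to -0.31. The difference between the 2 Roquin genes was not tested. Of 8 measured relatives none was called, 2 were lower without overlap (14.0% of all genes), and the median difference was 0.02. Btg3 was not measured.

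No partner or regulator of the members was called. Of 14 measured, 2 were lower at an unadjusted p under 0.05 and none higher (8.58% and 11.3% of all genes), and the median difference was 0.00. The widest was Malt1, the protease that cleaves Regnase-1 and Roquin after antigen receptor signals, at 9.14, 9.05 and 8.95 against 8.42 and 8.42 (-0.63 ± 0.06 SE, adjusted p = 0.0508).

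The enzymes to which these factors deliver transcripts were measured by 3 lists. Among 15 deadenylase genes, 2 fell and none rose (0.963% and 0.737% of all genes). Cnot6l, a catalytic subunit of CCR4-NOT, read 10.3, 10.4 and 10.3 on the unstimulated arrays and 9.63 and 9.61 on the stimulated arrays. It fell by 0.73 on the log2 scale (SE 0.02, adjusted p = 0.0158). Pan3, a subunit of the PAN2-PAN3 deadenylase, read 9.23, 9.14 and 9.29 against 8.43 and 8.39 (-0.81 ± 0.06 SE, adjusted p = 0.0352). The median difference of the list was -0.03, with 6 genes higher and 9 lower. Of 18 genes for decapping and 5′ to 3′ decay, 1 rose and none fell (0.737% and 0.963% of all genes), and the median was 0.19. The one that rose was Eif4enif1, which codes for the 4E-T protein that links decay factors to the cap-binding protein, at 7.38, 7.54 and 7.59 against 8.80 and 8.81 (1.30 ± 0.08 SE, 2.47-fold, adjusted p = 0.0307). With the mean of its probe sets the difference was 0.81 and was not called (adjusted p = 0.0736).

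For the RNA exosome, which degrades RNA from the 3′ end, all 15 measured genes had positive differences (53.3% of all genes did), from 0.06 to 1.14 with a median of 0.57. In 13 of the 15 the stimulated arrays lay above all unstimulated ones, against 18.6% of all genes, a share that includes the many genes with repeated values. At an unadjusted p under 0.05, 9 were higher, against 11.3% of all genes, but none was called. The widest was Wdr61, a subunit of the SKI complex, at 7.74, 8.11 and 7.98 against 9.22 and 8.94 (1.14 ± 0.16 SE, adjusted p = 0.0712). The list's median level on unstimulated arrays was 7.25, 7.51 and 7.77, so that array 3 was nearest to the stimulated arrays (8.05 and 7.85). Of the calls in these lists, that of Cnot6l was kept in 3 of the 5 fits that left out an array and lost without unstimulated array 1 or 2, whereas those of Pan3 and Eif4enif1 were lost with any array left out (adjusted p from 0.0605 to 0.107 and from 0.0576 to 0.114), and that of Pan3 also with a robust prior (0.0504).

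**Figure D4:**
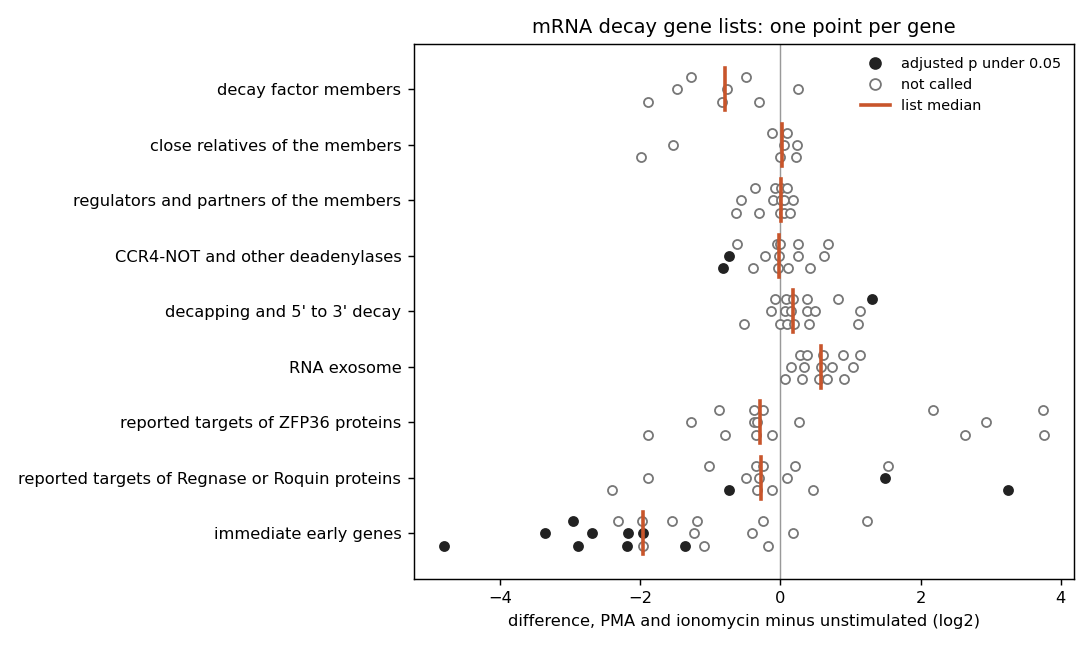
Difference on the log2 scale of each measured gene in 9 lists (filled, adjusted p under 0.05 in limma; open, not called; orange bar, list median). Medians are -0.79 for the 8 decay factor genes, near 0 for their relatives, partners and deadenylases, 0.57 for the RNA exosome and -1.95 for early response genes.

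Transcripts that ZFP36 proteins are known to bind did not differ in a single direction. Of 16 measured, none was called, 6 were higher and 6 lower without overlap between groups (18.6% and 14.0% of all genes), and the median difference was -0.29. Il3, a growth factor for mast cells and basophils, had the widest difference, reading 5.28, 6.43 and 5.12 against 9.39 and 9.36 (3.76 ± 0.49 SE, adjusted p = 0.0652). Il10, which codes for a suppressive cytokine, read 5.42, 5.68 and 5.04 against 8.60 and 8.01. Tnf, the best-known ZFP36 target, read 8.68, 8.92 and 8.63 against 8.53 and 8.47 (-0.24 ± 0.11 SE, adjusted p = 0.368). Csf2 and Il2, both known for AU-rich elements, were lower on each stimulated array than on any unstimulated array, with Csf2 at 10.9, 11.0 and 10.7 against 10.1 and 10.0, and Il2 at 7.91, 8.81 and 7.90 against 6.50 and 6.15. Neither was called (adjusted p = 0.0566 and 0.110).

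Reported targets of Regnase or Roquin proteins also went both ways. Of 16 measured, 2 rose and 1 fell (0.737% and 0.963% of all genes), and the median difference was -0.27. The transcription factor gene Irf4 read 6.65, 7.08 and 6.97 on unstimulated arrays and 10.0 and 10.3 on stimulated arrays (3.25 ± 0.17 SE, adjusted p = 0.0271). The transferrin receptor gene Tfrc rose 2.80-fold (1.48 ± 0.11 SE, adjusted p = 0.0363), from 8.09 to 8.32 in unstimulated cells to 9.81 and 9.58. Nfkbiz, which codes for the nuclear NF-kB cofactor IkB-zeta, fell by 0.74 on the log2 scale (SE 0.07, adjusted p = 0.0492), from 10.1 to 10.3 down to 9.37 and 9.46. The calls of all 3 genes were lost with any array left out (adjusted p from 0.0519 to 0.154), and those of Tfrc and Nfkbiz also with a robust prior (0.0523 and 0.0655). Il6, the classical Regnase-1 target, spread from 4.87 to 7.16 over the unstimulated arrays alone and differed by -0.34 ± 0.78 SE (adjusted p = 0.826). Zc3h12a, whose transcript its own product is known to cut, is counted in this list with the values given above.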

How the data were processed

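Per the labels, 6 micrograms of total RNA a sample gave biotin-labelled cRNA for 1-colour Affymetrix arrays. The deposited values are log2 expression values for 35556 probe sets, made by the authors with RMA, per the submitters' processing notes. The RMA version, the genome build and the arrays normalized together are not given in the sources used here. Array medians were 5.63 to 5.66. There are no detection calls, and precision is limited by the number of arrays.

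Groups and replicate numbers came from the titles. The platform annotation gave 21789 probe sets a single symbol, 1621 several and 12146 none, and only the first kind was used. Entrez numbers of 21698 matched the RefSeq gene table, and no symbol changed.

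Stimulated and unstimulated arrays were compared over all 19938 genes (R 4.3.3, limma 3.58.1, functions lmFit and eBayes, two-sided, Benjamini-Hochberg threshold 0.05). "Rose" and "fell" are used only of called genes. With 3 arrays against 2, an exact permutation test cannot go below p = 0.1, so none is given. The code was tested on simulated data. Alternatives were an intensity trend, robust variances, array weights, 2 filters on dim genes, mean probe sets, 3 further normalizations, other thresholds, a replicate block and omission of each array. Chosen after seeing the data were unstimulated array 3 as sole control, only genes without repeated values, and the other Rc3h1 probe set. The members and gene lists were chosen with earlier results of these data known. All 8 members are named. Of the other pathway lists, called genes (up to 4 each way, by size), the gene with the widest difference, and a set of cytokines could be. The genes nearest to Zfp36 and Btg2 could be named as well. Egr2, Tob2, Rc3h2, Btg4, the marker genes and Xist were named outside this rule. Plots were drawn with matplotlib 3.10.9 in Python 3.11.15.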

Additional observations from a re-analysis of the deposited data

How the results depend on the processing

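With 5 arrays, differences of the members kept their direction in every alternative run, except that of Zc3h12d, which turned to -0.017 after centring on the 10 reference genes. No member was called higher in any of them. The number called lower, 0 of 8 with all arrays, was 3 after median centring, 3 after repeated quantile normalization, 3 at an adjusted p under 0.1, 4 among genes above the median, 6 among genes without repeated values and 7 after reference gene centring, and 0 to 1 with an array left out. The 6 members lower at an unadjusted p under 0.05 became 2 against unstimulated array 3 alone. Among all genes, 147 were called higher and 192 lower. These counts were 45 and 66 with a robust prior, 317 and 351 among genes above the lower quartile, 824 and 716 among genes above the median, 660 and 526 after median centring, 825 and 729 after repeated quantile normalization, 914 and 2815 after reference gene centring, and 1548 and 1161 among the 7579 genes without repeated values. At other thresholds they were 755 and 695 (adjusted p under 0.1), 63 and 121 (2-fold as well) and 0 and 0 (adjusted p under 0.01). With an array left out they ran from 0 to 361 and from 0 to 413, being 0 without unstimulated array 2 (3024 genes at an unadjusted p under 0.05 in limma). They were 0 and 0 against unstimulated array 3 alone (3739 unadjusted). The cause of these shifts was not tested. With the replicate number as a block, limma called 0 genes higher and 0 lower (3568 unadjusted), and 3 members were lower at an unadjusted p under 0.05. Only numbers 1 and 2 are shared, and deviations from the group means correlated across genes at -0.14 and -0.06 for them. With 2 stimulated arrays, the deviations of 1 mirror those of the other, so these values cannot show whether samples with the same number belong together.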
